A study of Mus musculus with 12 samples.

Results

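The nuclear RNA exosome is a ring of subunits with attached nucleases that trims and degrades RNA in the nucleus, and it depends on adaptors to find its substrates. ZFC3H1 is the zinc finger scaffold of the PAXT connection, which works with the nuclear poly(A)-binding protein PABPN1 on longer polyadenylated nuclear RNAs, while ZCCHC8 and RBM7 form the NEXT complex with the helicase MTREX and act on short, mostly unadenylated transcripts. Both adaptors are linked to capped RNA through the cap-binding protein NCBP1 and ARS2, whose gene is listed as *Srrt*, and deliver RNA to a core that includes EXOSC3 and to the nucleases EXOSC10 and DIS3. These 9 genes (*Zfc3h1*, *Zcchc8*, *Rbm7*, *Pabpn1*, *Exosc3*, *Exosc10*, *Dis3*, *Srrt* and *Ncbp1*) were taken by name from the mouse gene lists. They are 9 of 17753 genes tested in cultured cells and of 27998 genes listed for single cells. The set was chosen by the level of *Zfc3h1* in the cultures described next, which was lower in *Larp7* knockout cells, so its culture values are given as a description without a test, and the other 8 genes, called its partners here, were then followed in the same cultures and in the intact tissue.

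LARP7 is the RNA-binding protein that stabilizes 7SK RNA, the scaffold that holds the elongation kinase P-TEFb inactive. Bulk RNA-seq was made from neurospheres, free-floating aggregates of neural stem and progenitor cells, of P1 dentate gyrus that were replated on Matrigel and kept for 2 days in N2B27 medium with 20 ng/ml bFGF. The titles mark them dif2d, and the study's methods give this as the opening step of neurosphere differentiation, before serum; its Results instead describe serum and removal of growth factors from day 0, so whether these cultures had serum is not settled here. There were 2 wild-type and 3 *Larp7* f/f;Emx1-Cre cultures, and the labels do not say whether cultures of a group came from separate animals, so p-values measure only the spread between these cultures. Single-cell RNA-seq was made from microdissected P7 dentate gyrus, with 1 wild-type library and 1 library of each mutant, *Larp7* f/f;Emx1-Cre as in the cultures and *Larp7* f/f;nestin-Cre, each of 3 to 4 gyri of littermates combined. Emx1-Cre deletes in Emx1+ neural stem and progenitor cells of the dorsal forebrain and their progeny, whereas nestin-Cre deletes across the developing central nervous system and in some other organs. The paper states that *Larp7*-floxed mice served as its wild-type control, so wild-type here stands for *Larp7* f/f without a named Cre driver. The presence of Cre thus differs between the groups together with the loss of *Larp7*. The floxed exon is exon 9, so that a shortened *Larp7* RNA can still be counted. The titles of the mutant single-cell libraries and their genotype entries name opposite Cre drivers, and the titles were followed here. The paper's count of nestin-Cre cells after quality control exceeds the 6821 barcodes of the library titled Emx1. It does not exceed the 7177 barcodes of the library titled nestin, so the cell counts go with the titles. Every statement that sets one mutant library against the other rests on the titles.

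The culture libraries held 59821311 to 62474602 counts and the P7 libraries 26689878 to 28918491 unique molecular identifiers (UMIs). *Larp7* in CPM (counts scaled to a common library total) was 42.8 and 35.0 in the wild-type cultures and 4.17, 6.35 and 4.39 in the knockout cultures (log2 fold change −2.97 ± 0.21 SE, edgeR adjusted p = 0.0198). At P7 it was 57.3 CPM in the wild-type, 12.5 in the nestin-Cre and 14.6 in the Emx1-Cre library. In the cultures 10 of 12 radial glia-like (RGL), 11 of 12 neuronal intermediate progenitor (nIPC), 12 of 12 oligodendrocyte precursor (OPC) and 2 of 12 microglial markers passed the filter on low counts. The wild-type P7 library was shallower per cell, with a median of 1782 UMIs against 3644 and 3873, and 31.0% of its cells against 10.2% and 8.44% could not be named by markers. It also held 962 erythroid-like cells, against 13 and 11 in the mutant libraries. Pairs of libraries shared 11 to 23 cell barcodes.

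The regions before the starts of *Zfc3h1*, *Pabpn1* and *Dis3* are shown, as the 3 members whose RNA differed most between genotypes. The stretch printed for each is the 250 bases before its earliest annotated exon, read 5′ to 3′ on the strand of the gene from GRCm38.p6. Capitals mark matches, on either strand, to the CCAAT box, the GC box GGGCGG and the ETS-type motif CCGGAAG.
Zfc3h1 (chr10:115384549-115384798, plus strand): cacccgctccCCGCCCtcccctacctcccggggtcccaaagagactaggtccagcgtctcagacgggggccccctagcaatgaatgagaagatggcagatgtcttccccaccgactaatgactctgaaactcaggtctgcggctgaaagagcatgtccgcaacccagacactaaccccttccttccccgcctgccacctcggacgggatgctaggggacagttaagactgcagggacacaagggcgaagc
Pabpn1 (chr14:54893893-54894142, plus strand): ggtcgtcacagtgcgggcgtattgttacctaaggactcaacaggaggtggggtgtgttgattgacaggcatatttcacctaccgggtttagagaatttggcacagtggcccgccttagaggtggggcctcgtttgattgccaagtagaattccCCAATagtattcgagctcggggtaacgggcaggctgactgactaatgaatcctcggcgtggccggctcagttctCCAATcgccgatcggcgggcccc
Dis3 (chr14:99099781-99100030, minus strand): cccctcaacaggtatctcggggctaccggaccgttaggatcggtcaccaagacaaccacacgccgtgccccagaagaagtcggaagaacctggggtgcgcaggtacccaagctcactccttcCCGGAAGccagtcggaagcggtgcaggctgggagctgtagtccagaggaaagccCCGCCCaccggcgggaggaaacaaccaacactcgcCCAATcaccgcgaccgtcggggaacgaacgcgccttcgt
The *Zfc3h1* stretch held 1 GC box match, that of *Pabpn1* 2 CCAAT matches, and that of *Dis3* 1 match to each motif. Of 32851 RefSeq promoter windows, each the 250 bases before a curated start, 33.8% held CCAAT, 32.7% GGGCGG and 6.91% CCGGAAG. None of the 3 stretches held TATAAA, which 12.4% of the windows did. Their G+C content was 60.8%, 56.0% and 63.6%, and they held 12, 16 and 23 CpG pairs, against a median of 52.4% and 6.0 pairs over all windows. The curated *Zfc3h1* transcript starts 160 bases downstream of the end of the stretch, and that of *Dis3* 10 bases downstream. The *Zfc3h1* stretch thus leaves out the bases just before its curated start, which the windows hold, so its values are set against windows placed unlike it. The match of letters is a description of these windows and says nothing of binding.

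In the cultures, *Zfc3h1* RNA was 81.1 and 88.9 CPM in wild-type cells and 40.7, 46.6 and 43.9 CPM in *Larp7* f/f;Emx1-Cre cells. All 3 knockout cultures lay well below both wild-type cultures, a mean difference of −48.6% (log2 fold change −0.96). This is the value for which the gene was chosen. Over all genes tested, the libraries of the groups did not overlap for 42.6%, with 21.3% lower and 21.3% higher in every knockout culture, and 6 genes (0.0338%; 0.0169% higher and 0.0169% lower) passed an adjusted p of 0.05 in edgeR, against 3846 at an unadjusted p under 0.05.

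None of the 8 partners of *Zfc3h1* passed an adjusted p of 0.05 in edgeR's quasi-likelihood test in the cultures, and 3 did at an unadjusted p under 0.05 (*Pabpn1*, *Exosc10* and *Dis3*); DESeq2 called 2, *Pabpn1* lower and *Dis3* higher, and called 10.7% of the 14810 genes to which it gave an adjusted p (4.9% higher and 5.81% lower). Partners whose libraries did not overlap between groups numbered 4, which is 1 lower (*Pabpn1*) and 3 higher (*Exosc3*, *Exosc10* and *Dis3*) of 8. Over all genes tested, 42.6% did not overlap, with 21.3% in each direction, and 3846 of 17753 had an unadjusted p under 0.05.

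*Pabpn1*, the partner of ZFC3H1 in PAXT, was the 1 partner below wild-type in every knockout culture. It was 178 and 187 CPM in wild-type and 147, 138 and 134 CPM in knockout cultures. The difference was −23.4%, or −0.39 ± 0.06 (SE) on the log2 scale, with an interval from −0.53 to −0.24 (unadjusted p = 0.000594, edgeR adjusted p = 0.0933). DESeq2 gave an adjusted p of 0.000676. With each culture left out in turn, the edgeR adjusted p ran from 0.0239 to 0.311, and with the replicate number as a block it was 0.344. The lowest is the fit without the first wild-type culture, in which 1905 genes were called and the lone wild-type culture is assumed to vary like the knockout cultures.

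The NEXT genes did not separate the groups. *Zcchc8*, the NEXT scaffold, was 70.0 and 64.0 CPM in wild-type and 69.9, 74.5 and 71.4 CPM in knockout cultures, a log2 fold change of 0.10 with an interval from −0.08 to 0.28 (edgeR adjusted p = 0.462). *Rbm7*, which carries the RNA-binding domain of NEXT, was 63.7 and 63.4 CPM against 61.2, 67.3 and 61.3 CPM, a log2 fold change of −0.01 with an interval from −0.19 to 0.18 (edgeR adjusted p = 0.970). For *Rbm7* the knockout values spread across the wild-type ones. For *Zcchc8* the lowest knockout culture lay just below the higher wild-type culture, and the other knockout cultures lay above it.

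The nuclease genes had higher means in the knockout cultures, without passing the edgeR test. *Dis3*, the core's main processive 3′ to 5′ nuclease in the nucleus, was 64.3 and 57.2 CPM in wild-type and 73.4, 80.2 and 71.7 CPM in knockout cultures, with a log2 fold change of 0.31 ± 0.09 (SE) and an interval from 0.10 to 0.52 (unadjusted p = 0.0115, edgeR adjusted p = 0.141; DESeq2 adjusted p = 0.0415). With each culture left out in turn its edgeR adjusted p ran from 0.0567 to 0.365. *Exosc10*, the distributive nuclease enriched in the nucleolus, was 106 and 101 CPM against 118, 122 and 121 CPM, a log2 fold change of 0.21 ± 0.06 (SE, edgeR adjusted p = 0.126). *Exosc3*, a cap subunit of the ring, was 10.9 and 10.4 CPM against 13.3, 11.1 and 11.1 CPM, a log2 fold change of 0.16 ± 0.13 (SE, edgeR adjusted p = 0.538). Every knockout culture exceeded every wild-type culture for these 3 genes, which 21.3% of all genes also did. *Dis3* overlaps *Pibf1* on the opposite strand over 357 bases, and the treatment of strand in the counting is not stated in the sources.

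For the cap side, *Srrt* was 199 and 184 CPM in wild-type and 203, 205 and 193 CPM in knockout cultures (log2 fold change 0.07, interval −0.08 to 0.22, edgeR adjusted p = 0.559). *Ncbp1* was 132 and 117 CPM against 133, 128 and 129 CPM (log2 fold change 0.06, interval −0.10 to 0.23, edgeR adjusted p = 0.631). The groups overlapped for both.

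**Figure D1:**
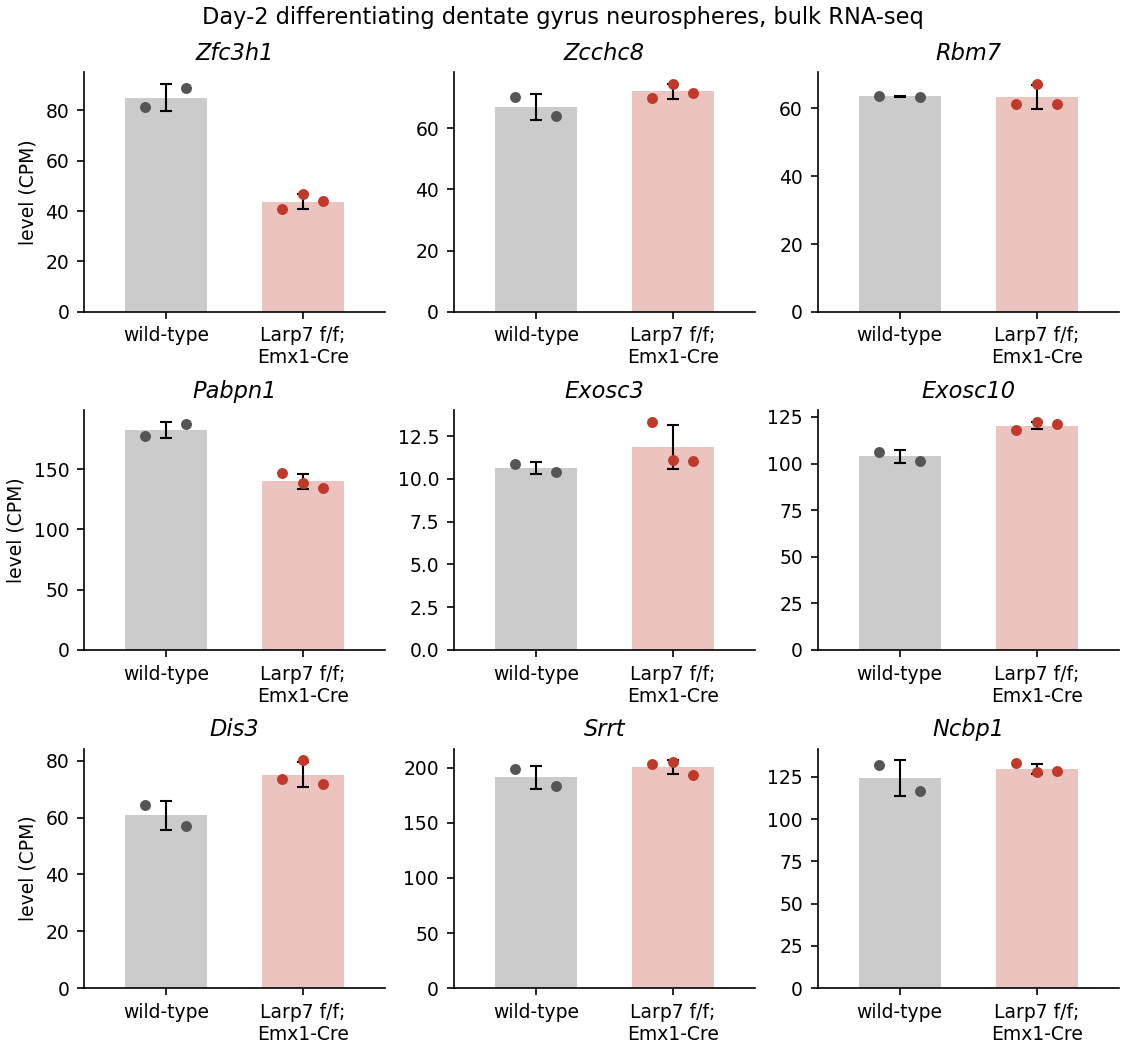
Level in CPM (vertical axis, from 0) of the 9 genes in each day-2 culture; points are cultures (2 wild-type, 3 *Larp7* f/f;Emx1-Cre), bars are means and error bars the SD. *Zfc3h1* and *Pabpn1* lay lower in all 3 knockout cultures, and *Exosc3*, *Exosc10* and *Dis3* higher.

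Per length of curated exons, in RPKM (CPM divided by kilobases of exon), the wild-type order was *Pabpn1* (102 ± 3.76, SD, n = 2), *Srrt* (63.3 ± 3.53), *Ncbp1* (39.9 ± 3.41), *Rbm7* (33.1 ± 0.12), *Exosc10* (32.6 ± 1.10), *Dis3* (16.0 ± 1.32), *Zcchc8* (15.6 ± 0.98), *Zfc3h1* (12.2 ± 0.79) and *Exosc3* (9.99 ± 0.33). The neighbours *Rbm7* and *Exosc10*, and *Dis3* and *Zcchc8*, overlapped between their libraries, and no other neighbours did. In the knockout cultures *Zfc3h1* was the lowest of the 9 at 6.29 ± 0.42 RPKM (SD, n = 3), under *Exosc3* at 11.1 ± 1.21 RPKM.

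The wider machinery of RNA decay and 3′ end formation was read from 8 lists that hold 105 genes, 9 of them the members. Of the other 94 genes tested, none passed an adjusted p of 0.05 in edgeR, 60 had a higher and 34 a lower mean in the knockout cultures, and their median log2 fold change was 0.08, beside 0.01 over all genes tested. DESeq2 called 8 higher and 3 lower, beside 4.9% and 5.81% of all genes. Groups did not overlap for 55.3% of the 94, with 36 higher and 16 lower, beside 42.6% of all genes with 21.3% in each direction.

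Among the other NEXT and PAXT genes, 3 of 4 had a higher mean and the median log2 fold change was 0.11. The helicase gene *Mtrex*, common to both complexes and named after its values were seen, stood at 102 CPM in wild-type and 112 CPM in knockout cultures (log2 fold change 0.13 ± 0.07 SE, edgeR adjusted p = 0.336). The remaining 11 exosome core and nuclease genes divided into 6 higher and 5 lower with a median of 0.02, and 7 partners of the cap-binding complex into 5 and 2 with a median of 0.15. Cofactors of the nucleolar exosome and the TRAMP complex (8 genes) had a median of 0.11, the cytoplasmic decay genes (10) one of 0.01, the Integrator subunits (14) one of 0.10 and the 3′ end processing genes (19) one of 0.11. The 21 snoRNA host and other long noncoding RNAs tested, a kind of transcript that the nuclear exosome is known to act on, divided into 11 higher and 10 lower with a median of 0.04.

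The 3 other list genes with the largest absolute log2 fold change, chosen after their values were seen, did not pass either. The long noncoding RNA *Meg3* was 3.5 CPM in wild-type and 1.6 CPM in knockout cultures (log2 fold change −1.11, edgeR adjusted p = 0.158). The snoRNA host *Snhg20* was 9.6 and 5.1 CPM (log2 fold change −0.92, edgeR adjusted p = 0.0933). *Clp1*, a kinase of the 3′ end cleavage machinery, was 6.7 and 12.4 CPM (log2 fold change 0.89, edgeR adjusted p = 0.0908). All 3 were apart between the groups, which follows in part from choosing them for large differences, and 42.6% of all genes tested were apart too.

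**Figure D2:**
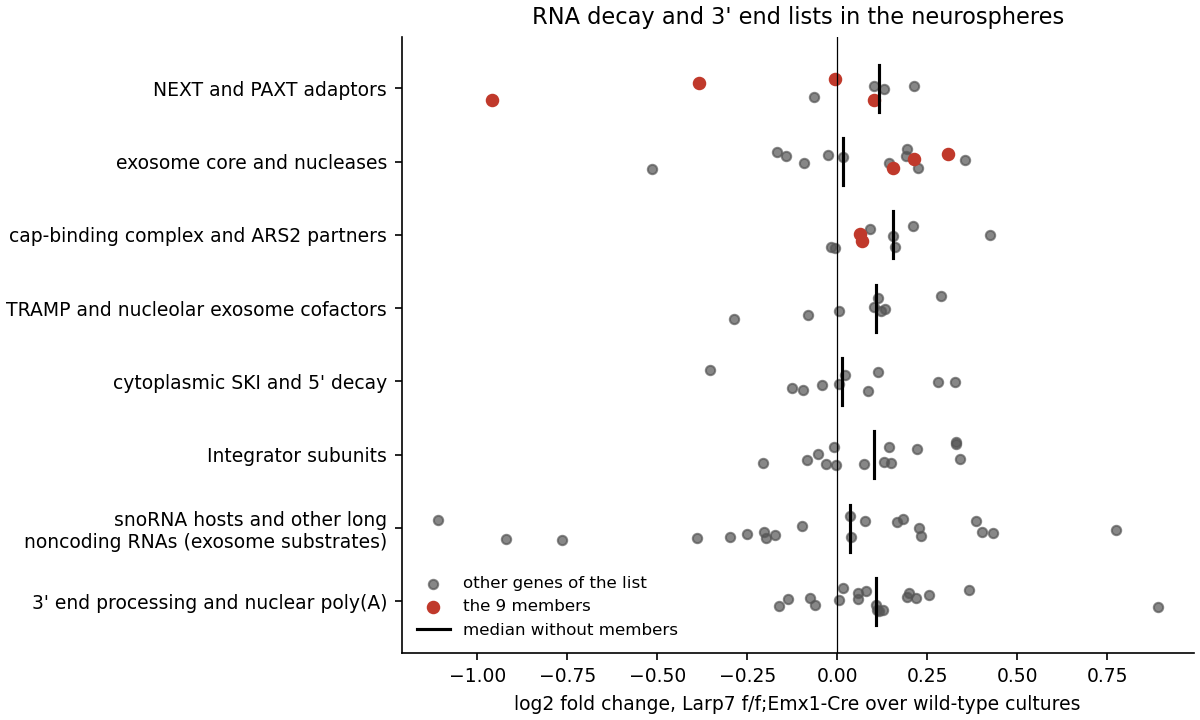
Log2 fold change of knockout over wild-type cultures (horizontal axis) for each tested gene of 8 lists (rows); red points are the 9 members, grey points the other genes and black lines the medians without members. The medians without members lie between 0.01 and 0.15; *Zfc3h1*, chosen for its value here, is drawn at −0.96.

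The summed levels of cell markers were also set side by side between the culture groups. Of 17 marker lists, 10 had sums that did not overlap, 5 higher and 5 lower in the knockout cultures. Of all single genes tested, 42.6% did not overlap, with 21.3% in each direction, so a count like this does not set the markers apart. The summed level of the 12 astrocyte markers was 751 to 1134 CPM in wild-type and 464 to 605 CPM in knockout cultures, and 11 of 12 had a lower mean. The 9 oligodendrocyte markers tested all had a higher mean, with sums of 205 to 323 CPM in wild-type and 366 to 557 CPM in knockout cultures, and 7 leptomeningeal stromal markers summed to 785 to 868 CPM and to 1176 to 1325 CPM. In the progenitor lineage, nIPC markers summed to 657 to 1108 CPM in wild-type and 1340 to 1437 CPM in knockout cultures, although 4 of 11 had a lower mean. RGL markers summed to 2926 to 3658 CPM and 2130 to 2750 CPM, although 6 of 10 had a higher mean. Immature granule neuron markers summed to 722 to 859 CPM and 561 to 673 CPM, and GABAergic interneuron markers to 220 to 356 CPM and 167 to 182 CPM. The remaining lists apart were Cajal-Retzius cell markers, lower, and OPC and ependymal or choroid markers, higher. No marker of any list passed an adjusted p of 0.05 in edgeR. The part of these differences in the values of the 9 genes was not tested, and in bulk RNA fewer cells of a type and less RNA per cell cannot be told apart.

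In P7 cells the interval of *Zfc3h1* over all cells lay below 0 for the Emx1-Cre library and spanned 0 for the nestin-Cre library, *Pabpn1* was lower in every class of cell and *Dis3* was higher in most. There was 1 library per genotype, so these are comparisons of libraries with no test. Intervals are 95% and cover counting error only, and both mutant libraries are set against the same wild-type library, so their ratios are not independent. Any difference in how the wild-type library was made cannot be told apart from genotype. Clusters were named by markers, and 7 classes with at least 50 cells in each library were compared: RGL-like, nIPC-like, neuroblast-like, pyramidal or mossy neuron-like, astrocyte-like, OPC-like and microglia-like cells.

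Over all cells, *Zfc3h1* was 25.6 CPM (23.8 to 27.6) in the wild-type, 23.2 CPM (21.4 to 25.1) in the nestin-Cre and 19.9 CPM (18.3 to 21.6) in the Emx1-Cre library, from 709, 610 and 563 UMIs. The log2 ratio to wild-type was −0.14 (−0.30 to 0.02) for nestin-Cre and −0.37 (−0.53 to −0.20) for Emx1-Cre, so that the nestin-Cre interval spans 0 and the Emx1-Cre one does not. Between the mutant libraries, nestin-Cre over Emx1-Cre was 0.22 (0.05 to 0.39). Mean log-normalized values per cell (natural log of 1 plus UMIs scaled to 10000), in place of summed UMIs, turned the direction in both. The nestin-Cre library was 0.014 and the Emx1-Cre library 0.0043 above wild-type on that scale, which is not a log2 ratio. The part of the shallower wild-type cells in this was not tested. Weighting the 7 classes equally, a choice made after seeing the data, gave log2 ratios of −0.08 and −0.31.

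*Zfc3h1* varied between classes of the wild-type library, from 40.8 CPM (26.9 to 59.4) in OPC-like cells through 30.8 CPM in microglia-like, 30.8 CPM in RGL-like, 30.0 CPM in astrocyte-like, 25.4 CPM in neuroblast-like and 16.9 CPM in nIPC-like to 12.1 CPM (7.07 to 19.4) in pyramidal or mossy neuron-like cells. Each class overlapped with the next in its interval. In nIPC-like cells, the class in which *Larp7* itself was highest at 90.8 CPM, *Zfc3h1* was 16.9 CPM in wild-type, 16.6 CPM in nestin-Cre and 13.8 CPM in Emx1-Cre cells (log2 ratios −0.03, −0.47 to 0.41, and −0.30, −0.75 to 0.15).

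The genotypes differed in *Zfc3h1* unevenly over classes. None of the 4 classes with at least 100 UMIs in the pair of libraries differed 1.5-fold in either library. Of all genes with that many UMIs, 10.5% differed 1.5-fold in RGL-like, 12.9% in nIPC-like, 21.5% in neuroblast-like and 8.57% in astrocyte-like cells of the nestin-Cre library, and 5.69%, 6.76%, 10.5% and 5.62% in those of the Emx1-Cre library. In neuroblast-like cells the ratio was −0.08 (−0.46 to 0.30) for nestin-Cre and −0.53 (−0.95 to −0.11) for Emx1-Cre, and in astrocyte-like cells −0.39 (−0.85 to 0.06) and −0.56 (−0.99 to −0.14). RGL-like cells gave −0.08 and −0.30, with intervals that span 0. In pyramidal or mossy neuron-like cells the sign was opposite, with 12.1 CPM in wild-type, 26.9 CPM (18.6 to 37.6) in nestin-Cre and 22.3 CPM (16.1 to 30.1) in Emx1-Cre cells, but from 17, 34 and 42 UMIs. Scaling genes over all cells before clustering turned the neuroblast-like ratios to 0.38 for nestin-Cre and 0.16 for Emx1-Cre. In astrocyte-like cells the values stayed below 0 under every alternative tried. There they reached −0.67 for nestin-Cre and −0.84 for Emx1-Cre at the lowest, past 1.5-fold.

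Different clusters held most of some classes. Of neuroblast-like cells, wild-type cells lay mostly in a cluster led by *Tbata* and *Scg2* (818 of 1162) and nestin-Cre cells mostly in a cluster led by *Gal* and *Cpne9* (1269 of 2039). Within the former *Zfc3h1* gave −0.22 (−0.72 to 0.28) for nestin-Cre and −0.79 (−1.34 to −0.25) for Emx1-Cre, and within the latter 0.28 (−0.47 to 1.11) and −0.03 (−0.83 to 0.84). Most wild-type astrocyte-like cells (1016 of 1645) lay in a shallow cluster led by *Igfbp2* and *Hapln1*. There *Zfc3h1* gave 0.45 (−0.54 to 1.35) for nestin-Cre and −1.19 (−2.58 to −0.02) for Emx1-Cre. These rest on 14 and 7 UMIs against 43 in wild-type. In the deeper astrocyte-like cluster, led by *Pla2g3* and *Pdyn*, *Zfc3h1* was lower in both libraries at −0.69 (−1.24 to −0.17) and −0.59 (−1.07 to −0.12).

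**Figure D3:**
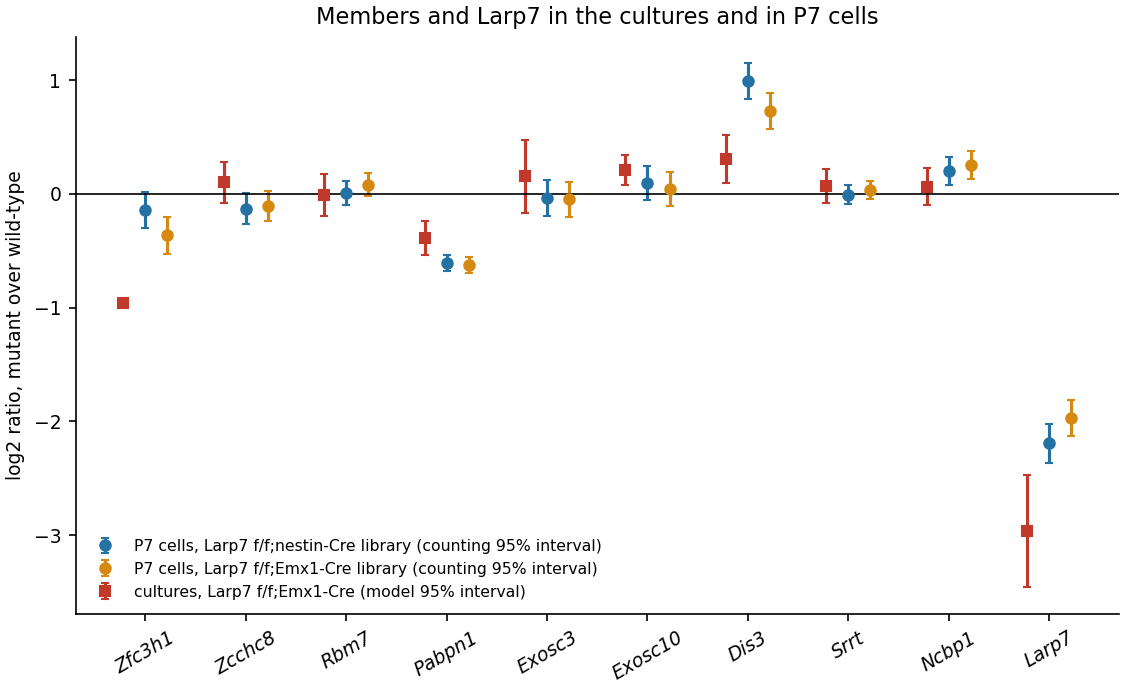
Log2 ratio of mutant over wild-type (vertical axis) for the 9 genes and *Larp7* in the cultures (squares, 95% interval of the edgeR model, none drawn for *Zfc3h1*) and over all P7 cells of each mutant library (circles, 95% counting interval). *Zfc3h1* stands at −0.96 in the cultures and at −0.14 and −0.37 at P7, while *Pabpn1* and *Dis3* lie farther from 0 at P7 than in the cultures.

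*Pabpn1* was 151 CPM (147 to 156) in the wild-type library, 99.3 CPM (95.5 to 103) in nestin-Cre and 98.0 CPM (94.4 to 102) in Emx1-Cre, from 4186, 2610 and 2772 UMIs. The log2 ratios were −0.61 (−0.68 to −0.54) and −0.63 (−0.70 to −0.56), past 1.5-fold in both. Among 12762 and 12720 genes with at least 100 UMIs, 17.0% and 7.94% differed at least 1.5-fold, 5.37% and 1.96% downwards. The mutant libraries differed from each other by 0.02 (−0.06 to 0.10).

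Every class had less *Pabpn1* in each mutant library than in wild-type. Its interval lay below 0 in 7 of 7 classes of the nestin-Cre library and in 5 of 7 of the Emx1-Cre library. *Pabpn1* was at least 1.5-fold lower in 6 of 7 classes of the nestin-Cre library and in 4 of 7 of the Emx1-Cre library. The share of all genes that low was, for nestin-Cre, 2.74% in RGL-like, 4.27% in nIPC-like, 9.24% in neuroblast-like, 7.09% in pyramidal or mossy neuron-like, 3.65% in astrocyte-like, 4.12% in OPC-like and 5.59% in microglia-like cells. For Emx1-Cre it was 1.48%, 1.59%, 3.32%, 3.29%, 2.55%, 1.78% and 2.82% in the same order. The ratios lay between −0.90 (pyramidal or mossy neuron-like) and −0.51 (nIPC-like) for nestin-Cre, and between −0.95 (pyramidal or mossy neuron-like) and −0.29 (OPC-like) for Emx1-Cre. In nIPC-like cells the level was 160 CPM (149 to 171) in wild-type, 112 CPM (104 to 121) in nestin-Cre and 107 CPM (99.0 to 115) in Emx1-Cre, and in RGL-like cells 187, 121 and 113 CPM. In both neuroblast-like clusters, both astrocyte-like clusters and both nIPC-like clusters it was lower in each mutant library.

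Microglia arise outside the neural lineage that the Cre drivers target. In microglia-like cells *Pabpn1* was 73.9 CPM (58.9 to 91.5) in wild-type, 46.9 CPM (36.7 to 59.2) in nestin-Cre and 52.6 CPM (38.7 to 70.0) in Emx1-Cre cells, log2 ratios of −0.65 (−1.13 to −0.18) and −0.49 (−1.04 to 0.04). *Larp7* in the same cells was 63.3, 35.7 and 40.3 CPM, ratios of −0.83 and −0.65, against −2.93 and −2.64 in nIPC-like cells.

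*Dis3* was 18.5 CPM (17.0 to 20.2) in the wild-type library, 36.9 CPM (34.6 to 39.3) in nestin-Cre and 30.7 CPM (28.7 to 32.8) in Emx1-Cre, from 513, 970 and 869 UMIs. The log2 ratios were 0.99 (0.84 to 1.15) and 0.73 (0.57 to 0.89). Of all genes, 11.7% and 5.98% were at least 1.5-fold higher in those libraries. The nestin-Cre library was above the Emx1-Cre library by 0.26 (0.13 to 0.40).

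Of the 7 classes *Dis3* was highest in nIPC-like cells of the wild-type library at 30.3 CPM (25.7 to 35.5) and lower in RGL-like cells at 10.3 CPM (6.57 to 15.3). It was higher in mutant RGL-like cells at 24.1 and 22.4 CPM (ratios 1.23, 0.56 to 1.96, and 1.13, 0.45 to 1.85). Mutant nIPC-like cells had 49.7 and 44.6 CPM (0.71, 0.42 to 1.00, and 0.55, 0.27 to 0.85), and mutant neuroblast-like cells 42.1 and 34.8 CPM against 22.0 CPM (0.94 and 0.66). All 3 classes with at least 100 UMIs in the nestin-Cre pair and 3 of 4 in the Emx1-Cre pair were at least 1.5-fold higher. The share of all genes that high was 7.77% in RGL-like, 8.66% in nIPC-like and 12.2% in neuroblast-like cells for nestin-Cre, and 4.21%, 5.17% and 7.19% in these and 3.07% in astrocyte-like cells for Emx1-Cre. In microglia-like cells, from 15, 26 and 11 UMIs, the ratios were 0.38 (−0.59 to 1.40) and −0.10 (−1.37 to 1.12). With cells thinned to 1500 UMIs the astrocyte-like Emx1-Cre ratio turned from 0.79 to −0.14 (−1.37 to 1.02).

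**Figure D4:**
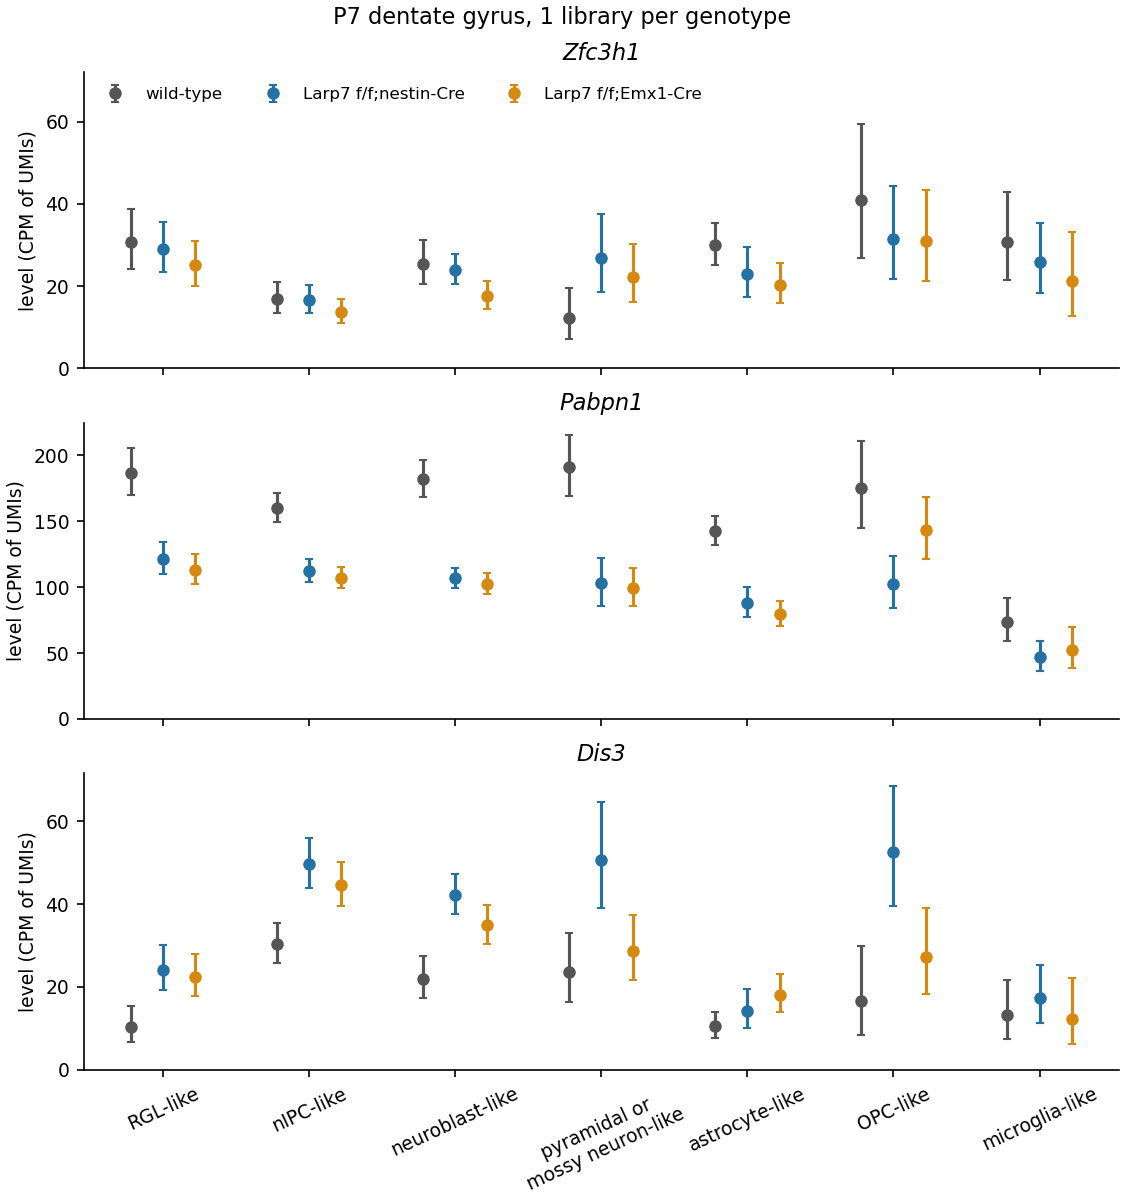
Level of *Zfc3h1*, *Pabpn1* and *Dis3* in CPM of UMIs (vertical axes, from 0) in 7 classes of P7 cells (horizontal axis) for each library; points are summed UMIs and bars 95% counting intervals. *Pabpn1* sits lower in both mutant libraries in each class, *Dis3* higher in nIPC-like, neuroblast-like and RGL-like cells, and most *Zfc3h1* intervals overlap.

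The other partners lay near the wild-type library. Over all cells *Srrt* was 89.4, 88.8 and 91.3 CPM in wild-type, nestin-Cre and Emx1-Cre (log2 ratios −0.01, −0.09 to 0.07, and 0.03, −0.05 to 0.11). *Rbm7* was 54.7, 55.1 and 57.8 CPM, *Exosc10* 27.0, 28.8 and 27.8 CPM and *Exosc3* 25.1, 24.5 and 24.3 CPM, and all 6 intervals of their ratios span 0 and stay within 1.5-fold. *Zcchc8* was 33.5, 30.6 and 31.1 CPM (−0.13, −0.27 to 0.01, and −0.11, −0.24 to 0.03). *Ncbp1* was 36.7, 42.3 and 43.8 CPM, with ratios of 0.20 (0.08 to 0.33) and 0.25 (0.13 to 0.38), which became 0.04 and 0.10 with the 7 classes weighted equally.

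By class, *Zcchc8* was lower in RGL-like cells of both libraries, at −0.65 (−1.12 to −0.18) and −0.47 (−0.92 to −0.02). *Ncbp1* was 1.5-fold higher in RGL-like cells of the Emx1-Cre library at 0.64 (0.18 to 1.11). In nIPC-like cells *Ncbp1* was 0.38 (0.14 to 0.62) for nestin-Cre and 0.27 (0.04 to 0.51) for Emx1-Cre, within 1.5-fold. Of its classes with at least 100 UMIs, 1 of 4 was below 0 for nestin-Cre and 1 of 5 for Emx1-Cre. *Rbm7*, *Exosc3*, *Exosc10* and *Srrt* were within 1.5-fold in each class with at least 100 UMIs. Of all genes, 14.4% and 8.44% differed that much in pyramidal or mossy neuron-like, 11.2% and 5.93% in OPC-like and 10.2% and 5.05% in microglia-like cells of the nestin-Cre and Emx1-Cre library. Thinning cells to 1500 UMIs took some partners past 1.5-fold, as *Exosc10* in Emx1-Cre RGL-like cells at −0.93 (−1.76 to −0.13), *Exosc3* in Emx1-Cre neuroblast-like cells at 0.68 (0.03 to 1.37) and *Zcchc8* in nestin-Cre nIPC-like cells at −0.74 (−1.31 to −0.18). Counted over the 8 partners and all cells, 1 was at least 1.5-fold higher (*Dis3*) and 1 at least 1.5-fold lower (*Pabpn1*) in each mutant library. Beside this, 11.7% of all genes were that much higher and 5.37% lower for nestin-Cre, and 5.98% and 1.96% for Emx1-Cre.

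**Figure D5:**
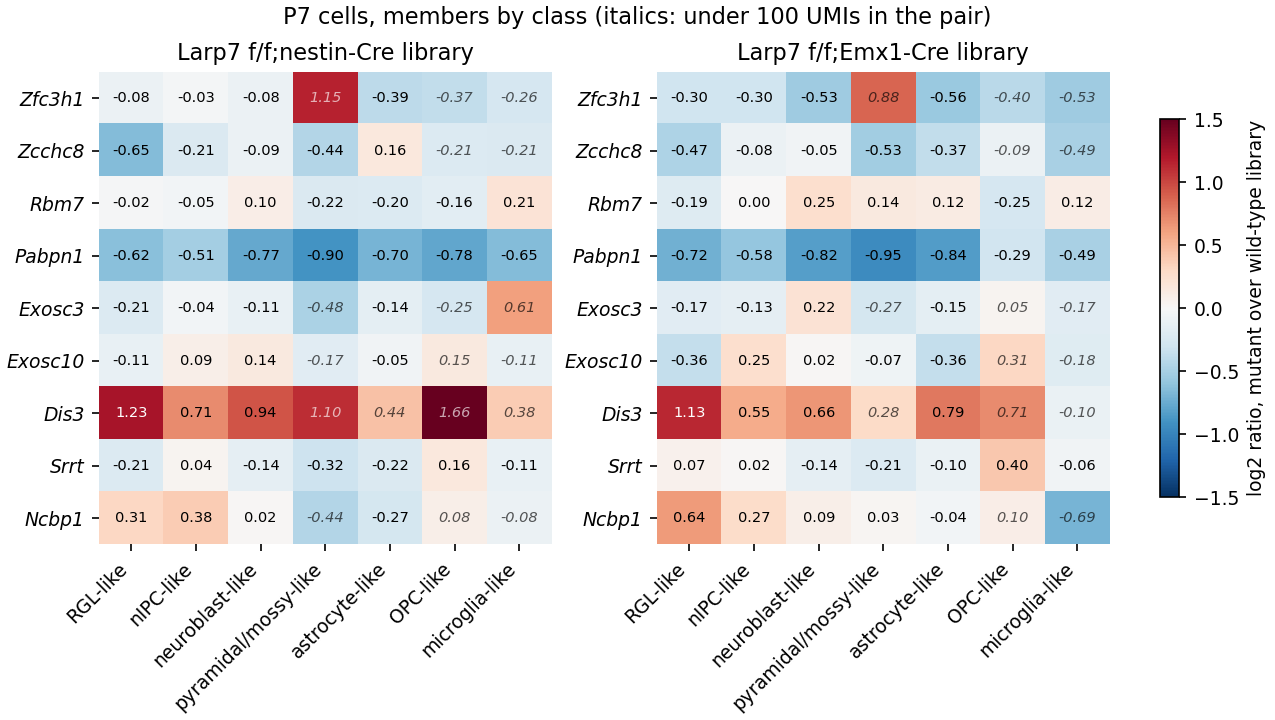
Log2 ratio of each mutant library over the wild-type library (colour and number) for the 9 genes (rows) in 7 classes of P7 cells (columns); italic numbers rest on under 100 UMIs in the pair. *Pabpn1* is below 0 in every class, *Dis3* above 0 in all but Emx1-Cre microglia-like cells, and *Zfc3h1* below 0 except in pyramidal or mossy neuron-like cells.

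The rest of the decay machinery had list medians between −0.05 and 0.21 at P7. Over all cells, the 10 other exosome core and nuclease genes had median log2 ratios of −0.05 for nestin-Cre and 0.05 for Emx1-Cre, with none past 1.5-fold, and the 7 other cap-binding partners 0.04 and 0.10, again with none. The 4 other NEXT and PAXT genes were all higher in both libraries with medians of 0.13 and 0.11, and *Mtrex* was 0.26 (0.12 to 0.40) and 0.25 (0.12 to 0.39). The 10 cytoplasmic decay genes had medians of 0.20 and 0.21 with 1 at least 1.5-fold lower in the nestin-Cre library. In that library 1 of 8 TRAMP and nucleolar cofactors, 1 of 14 Integrator subunits and 2 of 19 genes of 3′ end processing were at least 1.5-fold higher, and none of these 4 lists had a gene past 1.5-fold in the Emx1-Cre library. Their other medians were −0.04 and 0.04 for TRAMP, −0.04 and −0.01 for Integrator and 0.06 and 0.06 for 3′ end processing. Of 11 noncoding RNAs of the substrate list with at least 100 UMIs, 3 were at least 1.5-fold higher and 0 lower in the nestin-Cre library, and 2 higher and 1 lower in the Emx1-Cre library. Of all genes, 11.7% were that much higher and 5.37% lower for nestin-Cre, and 5.98% and 1.96% for Emx1-Cre. The median over all genes was 0.06 for nestin-Cre and 0.08 for Emx1-Cre.

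Over the 21 points that 7 classes and 3 libraries give, the genes whose log2 CPM was most like that of *Zfc3h1* were *2310015A10Rik* (Pearson r = 0.80), *Parp8* (0.80), *Tm9sf4* (0.79), *Arf3* (0.77) and *Rnpepl1* (0.76) among 11216 genes. The points share libraries and depth, so this is a description. Partners gave r from −0.41 (*Srrt*) to 0.45 (*Rbm7*), with 0.03 for *Pabpn1* and −0.35 for *Dis3*.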

How the data were processed

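The authors deposited the bulk values as raw counts per Entrez gene. The paper names Minimap2 on Ensembl transcripts for alignment, while the submitters' tools include featureCounts, so how the counts were made is not settled here. The authors deposited the P7 values as UMI counts from Cell Ranger, whose version differs between methods and file headers. The submitters' notes name the build mm10. Of 10 columns in the count table, 5 were not used, because their names match no sample. ATAC-seq and CUT&Tag samples were not analysed here. Entrez IDs were given symbols through GRCm38.p6 (39373 of 40814 genes). Of 285 list genes, 284 were matched in the count table and 273 at P7.

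Counts were tested with edgeR 4.0.16 (R 4.3.3; TMM, filterByExpr, quasi-likelihood test, Benjamini-Hochberg over 17753 genes), with DESeq2 1.42.0 as an alternative. CPM use TMM library sizes and RPKM the length of curated exons. Of the members, 9 passed the filter. The coefficient of variation between cultures was 19.4%. Libraries of 1 group differed by more than sampling noise. The steps were tested on simulated data.

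P7 barcodes with over 500 genes and under 15% mitochondrial UMIs were kept (10997 wild-type, 6685 nestin-Cre and 6531 Emx1-Cre), scaled within library and clustered (scanpy 1.11.5, 2000 genes, 30 components, 15 neighbours, resolution 1), without the members, *Larp7*, the list genes and cell cycle genes. Names required at least 3 markers in 10% of a cluster's cells and 1.5-fold raised, a mean log2 excess of 0.5 over the marker list, and at least 1 marker, and no more of another list, among the 10 leading genes. The paper states the same limits but kept more cells of each genotype, most of all of wild-type. Rebuilt names differ from the study's in class size, with fewer wild-type and more mutant nIPC-like cells here than the paper's nIPCs. Doublets were kept. Scrublet called 2 wild-type cells and was taken not to have worked there, so removal of the 6% highest scores was tried. UMIs were summed per class, with exact Poisson intervals for levels and exact binomial intervals for ratios.

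The naming rule gave the 9 members, *Larp7*, list genes past an adjusted p of 0.05 in the cultures (none) and the 5 genes most like *Zfc3h1* by Pearson r. *Mtrex*, *Meg3*, *Snhg20* and *Clp1* were named outside it, after their values were seen. Leaving out unnamed and erythroid-like cells and weighting classes equally were alternatives added after seeing the data. Members and lists were chosen with earlier results of these data known.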

Additional observations from a re-analysis of the deposited data

Results flagged for a closer look

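Of the 9 genes, 1 had intervals on opposite sides of 0 in different classes of cells. *Zfc3h1* in the Emx1-Cre library, set against the wild-type library, gave a log2 ratio of 0.88 (0.03 to 1.78) in pyramidal or mossy neuron-like cells, but −0.53 (−0.95 to −0.11) in neuroblast-like and −0.56 (−0.99 to −0.14) in astrocyte-like cells. The difference between the classes was not tested, since there is 1 library per genotype. The pyramidal or mossy neuron-like value rests on 42 UMIs against 17 in 1 cluster of 435 Emx1-Cre and 421 wild-type cells. In the nestin-Cre library the ratio in that class was 1.15 (0.27 to 2.08) from 34 UMIs, with the same 17 wild-type UMIs behind it.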

How the results depend on the processing

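In the cultures, edgeR called 3 genes higher and 3 lower. DESeq2 called 726 higher and 860 lower, testing without a low-count filter 1 higher, and the replicate block 0 in either direction. With 1 culture left out, counts ran from 0 to 1050 higher and from 0 to 855 lower, the highest without the first wild-type culture. Of the 8 partners, DESeq2 called 1 higher and 1 lower, and leaving out 1 culture 0 higher and 0 to 1 lower. Of the other list genes DESeq2 called 8 higher and 3 lower, and leaving out 1 culture 0 to 10 higher and 0 to 2 lower. *Rbm7* turned to 0.014 under the replicate block and ran from −0.053 to 0.019 with 1 culture left out, and *Ncbp1* ran from −0.020 to 0.152. Replicate numbers were not shown to pair the cultures (correlations of −0.01 and 0.09 over 2 numbers), and the block changed no partner's call (*Pabpn1* adjusted p = 0.344). At P7, *Zfc3h1* over all cells was 0.014 (nestin-Cre) and 0.0043 (Emx1-Cre) above wild-type as a difference of mean log-normalized values per cell. That scale is a natural log and not a log2 ratio, and the direction was turned in both. For Emx1-Cre, the *Zfc3h1* ratio in neuroblast-like cells became 0.16 with genes scaled over all cells. That of *Dis3* in astrocyte-like cells became −0.14 after thinning to 1500 UMIs. Weighting the classes equally and leaving out unnamed and erythroid-like cells were chosen after seeing the data, and neither turned a member's direction where its interval excludes 0. The cause of these changes was not tested. The class values of *Zfc3h1* rest on 17 to 171 UMIs per library, so that differences within their intervals were not detectable at this depth.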
